A study of Homo sapiens with 6 samples.

Results

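The genes described here are 10 ligand genes of the TGFβ superfamily, chosen by name: the TGFβ ligands TGFB1, TGFB2 and TGFB3, the activin and inhibin β subunits INHBA, INHBB, INHBC and INHBE, the nodal ligand NODAL with its relative LEFTY1, and GDF15. Each name matched a single row among the 57773 genes of the deposited count table. RNA was sequenced from 6 cultures of HepG2, an established human hepatocellular carcinoma line that stands in for hepatocytes as a single tumor line. In 3 cultures the cells received recombinant human TGFβ1 protein at 5 ng/mL for 3 h (TGFβ), and in 3 they received vehicle for 3 h, with no other treatment in either group; the study's methods place both in medium without serum. The comparison asks which genes respond to TGFβ in these cells, and the added ligand was protein, so all TGFB1 reads came from the cells' own transcripts.

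Most ligands of this superfamily are made as precursors that pair as dimers and are cut by furin-like convertases. TGFβ ligands, activins and nodal bind type II and type I receptor serine/threonine kinases that phosphorylate SMAD2 and SMAD3, while BMPs act through SMAD1, SMAD5 and SMAD8. Nodal needs a co-receptor such as TDGF1 (Cripto), LEFTY proteins are secreted antagonists of nodal signaling, and GDF15 is a stress-induced hormone that acts on the receptor GFRAL in the brainstem. In liver, INHBC and INHBE are best known as genes of hepatocytes.

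Vehicle cultures had between 60815385 and 88415362 reads on genes and TGFβ cultures between 73263662 and 100099136. All 9 hepatocyte markers examined, ALB and HNF4A among them, had at least 10 reads in every culture, and their summed level lay between 37354 and 41829 CPM (counts scaled to a common library size) with vehicle and between 35905 and 40683 with TGFβ. Of 8 stromal markers, COL1A2, DCN, LUM and PDGFRA were under 10 reads in every culture, and the summed level of the list, mostly from COL1A1, ACTA2 and PDGFRB, lay between 52.5 and 57.4 CPM with vehicle and between 62.8 and 71.4 with TGFβ. Of 7 blood cell markers, PTPRC, HBB and PF4 were under 10 reads in every culture, and the list, which was almost all LYZ, summed to between 1098 and 1425 CPM with vehicle and between 951 and 1046 with TGFβ. Of the 3 endothelial markers in the table, KDR had no read, and the list stayed between 0.196 and 0.272 CPM over both groups. No marker passed a false discovery rate (FDR) of 0.05 from edgeR in the fit by group alone. With the culture number as a block, a fit that compares same-numbered cultures, 2 of the 3 tested stromal markers were higher, PDGFRB at 6.77 ± 2.19 CPM with vehicle and 15.8 ± 7.1 with TGFβ (log2 fold change 1.22, edgeR FDR 0.0582, 7.25e-06 with the block) and COL1A1 at 7.54 ± 2.27 and 11.2 ± 0.964 (log2 fold change 0.57, edgeR FDR 0.193, 0.00806 with the block), while ACTA2 was level at 39.7 ± 2.33 and 39.2 ± 2.43 CPM (SD, n = 3). LYZ was lower with the block (log2 fold change -0.35, edgeR FDR 0.106, 0.0157 with the block). So were the hepatocyte markers TTR (log2 fold change -0.25 and edgeR FDR 0.0495 with the block) and FGB (log2 fold change -0.22 and edgeR FDR 0.0331 with the block). Without the block TTR was at -0.22 (edgeR FDR 0.804) and FGB at -0.20 (edgeR FDR 0.722). Over all tested genes, 8.08% were higher and 3.75% lower with the block. The part of these markers in the ligand results was not tested. In such bulk RNA, fewer cells of a kind and less RNA per cell cannot be told apart, and the counts measure transcripts, not secreted protein.

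TGFβ raised 5 of the 10 ligand genes: NODAL, LEFTY1, INHBE, INHBC and TGFB1. No member fell. A change was called at an FDR under 0.05 (quasi-likelihood F test of edgeR, Benjamini-Hochberg adjustment over the 22747 genes tested), and 4.12% of those genes were called, 3.11% higher and 1.01% lower. At an unadjusted p under 0.05 from edgeR, 6 members were higher and 0 lower, against 8.69% and 4.97% of all tested genes. DESeq2 called 5 members higher and 0 lower, against 5.02% and 2.02% of the 20101 genes to which it gave an FDR. The same counts came from limma-voom, against 2.99% and 0.932%. The median log2 fold change of the 9 tested members was 1.12, against -0.01 over all tested genes. NODAL and TGFB2 passed the filter on low counts through the TGFβ cultures, since only 2 of the 3 vehicle cultures reached its minimum of 0.124 CPM (on total counts, before TMM scaling), so the number of members tested is itself tied to their change. INHBA did not pass, and it was too low to judge. Same-numbered cultures of the groups deviated together, and with the culture number as a block the same 5 members were called higher and 0 lower, where 8.08% of all genes were higher and 3.75% lower.

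NODAL (ENSG00000156574, chr10:72192071-72207707 in hg19, minus strand), which encodes the ligand that patterns the early embryo, showed the largest change of the 10 members. It had 20, 9 and 22 reads in vehicle cultures 1, 2 and 3, and 307, 168 and 222 reads in TGFβ cultures 1, 2 and 3. Scaled for depth, these were 0.227, 0.109 and 0.357 CPM with vehicle and 3.17, 2.09 and 3.05 CPM with TGFβ. The lowest TGFβ culture was far above the highest vehicle culture, and culture 2 was the lowest in both groups. The mean rose from 0.231 ± 0.124 to 2.77 ± 0.592 CPM (SD, n = 3), a 12.3-fold change (95% interval 7.11 to 21.3). The log2 fold change was 3.62 (standard error 0.35, edgeR FDR 0.000424), and the two-sided exact permutation p of 0.1 is the lowest that groups of 3 can reach. AC022532.1, a gene that lies inside NODAL over 1730 bp, had 15, 9 and 17 reads under vehicle and 149, 87 and 120 under TGFβ, and its log2 fold change was 2.98 (standard error 0.34, edgeR FDR 0.000954). Like NODAL, it passed the filter on low counts through the TGFβ cultures, since vehicle culture 2 lay under its minimum. How reads on overlapping genes were counted is not given by the sources used here, so both rows may hold reads of the same transcripts. The next tested genes on each side, EIF4EBP2 and PALD1, had log2 fold changes of 0.03 (edgeR FDR 0.905) and 0.18 (edgeR FDR 0.889).

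LEFTY1 (ENSG00000243709, chr1:226073982-226099082, minus strand), the nodal antagonist, had 92, 51 and 76 reads under vehicle and 311, 156 and 247 under TGFβ. The groups did not overlap, and culture 2 was again the lowest of each. The mean rose from 0.964 ± 0.317 to 2.85 ± 0.79 CPM (SD, n = 3), or 2.97-fold (95% interval 1.88 to 4.7), with a log2 fold change of 1.57 (standard error 0.30, edgeR FDR 0.0153). Without vehicle replicate 2 it was 1.32 and missed the threshold (edgeR FDR 0.0551), and with the block the FDR was 6.06e-05. LEFTY2, its neighboring paralog of very similar sequence, was looked at after its values were seen and had 46, 21 and 16 reads under vehicle and 62, 44 and 48 under TGFβ. The LEFTY2 change did not pass (log2 fold change 0.81, standard error 0.32, edgeR FDR 0.275, 0.0829 with the block), and reads of such close copies can be split between them. The row of RP4-559A3.7, which overlaps LEFTY1 over 24687 bp, had a log2 fold change of -0.06 (edgeR FDR 0.84).

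In every vehicle culture NODAL was below LEFTY1 per unit of length, and with TGFβ it drew level or passed it. The ratio of the deposited RPKM (read counts scaled to coding length and library size) of NODAL to that of LEFTY1 was 0.243, 0.197 and 0.323 in vehicle cultures 1, 2 and 3 and 1.1, 1.2 and 1 in TGFβ cultures 1, 2 and 3. This ratio does not depend on library size, and the groups did not overlap (two-sided exact permutation p = 0.1, which is the lowest possible, and 0.1 after adjustment over the 3 ratios tested). Each of the 3 ratios rests on the same reads as the fitted changes of its genes, so none is separate evidence of change. TDGF1, the co-receptor that nodal uses, had between 100 and 165 reads per culture and was not called, at a log2 fold change of -0.20 (standard error 0.23, edgeR FDR 0.811).

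INHBE and INHBC, which encode the activin βE and βC subunits, lie next to each other on the plus strand of chromosome 12, and both rose. INHBE (ENSG00000139269, chr12:57846106-57853063) had 3671, 2755 and 2655 reads under vehicle and 9793, 7360 and 10162 under TGFβ. INHBC (ENSG00000175189, chr12:57828543-57844611) had 829, 532 and 559 reads under vehicle and 1842, 1269 and 1394 under TGFβ. For both genes the lowest TGFβ culture exceeded the highest vehicle culture, and culture 2 was the lowest of its group in CPM. INHBE went from 39.3 ± 5.31 to 111 ± 25.4 CPM (SD, n = 3), a 2.81-fold change (95% interval 2.2 to 3.6) with a log2 fold change of 1.49 (standard error 0.16, edgeR FDR 0.000639). INHBC went from 8.3 ± 1.63 to 18 ± 1.9 CPM (SD, n = 3), a 2.17-fold change (95% interval 1.71 to 2.75) with a log2 fold change of 1.12 (standard error 0.15, edgeR FDR 0.00287). The RPKM ratio of INHBE to INHBC was 2.93, 3.42 and 3.14 with vehicle and 3.51, 3.83 and 4.82 with TGFβ, so the INHBE share was higher in each TGFβ culture than in any vehicle culture (two-sided exact permutation p = 0.1, adjusted 0.1). The genes that flank this pair did not pass the test. R3HDM2, on the side of INHBC, had a log2 fold change of 0.18 (edgeR FDR 0.318), and GLI1, a hedgehog pathway transcription factor gene that starts 855 bp beyond INHBE, had only 10, 13 and 5 reads under vehicle and 22, 17 and 15 under TGFβ (log2 fold change 0.84, standard error 0.36, edgeR FDR 0.326).

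TGFB1 (ENSG00000105329, chr19:41807492-41859816, minus strand) was the most abundant of the 3 TGFβ ligand genes and the only one of them that passed the test. It had 8194, 7632 and 5426 reads under vehicle and 13336, 13110 and 9374 under TGFβ, or 92.8, 92.1 and 88.1 CPM and 138, 163 and 129 CPM. The vehicle cultures were close to each other, the TGFβ cultures were more spread, and the groups did not overlap. The fitted change was 1.57-fold (95% interval 1.36 to 1.81; log2 fold change 0.65, standard error 0.09, edgeR FDR 0.00336), the smallest of the 5 that were called. Its table row overlaps those of HNRNPUL1, CCDC97, CTC-435M10.3 and TMEM91, whose log2 fold changes lay between -0.10 and 0.12 and did not pass (edgeR FDR 0.482 or above). AXL, a receptor tyrosine kinase gene and the next tested gene on the other side of HNRNPUL1, passed only with the block (log2 fold change 0.61, edgeR FDR 0.0961, 0.00113 with the block).

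TGFB2 (ENSG00000092969, chr1:218519577-218617961, plus strand) had 4, 10 and 9 reads under vehicle and 27, 17 and 16 under TGFβ. The groups did not overlap, but the gene lies at the edge of what this depth can judge, with 23 reads over the vehicle cultures and 60 over the TGFβ cultures. Its log2 fold change was 1.23 (95% interval 0.27 to 2.19, unadjusted p = 0.0175 from edgeR), and it did not pass after adjustment (edgeR FDR 0.2, 0.109 with the block). TGFB3 (ENSG00000119699, chr14:76424442-76449334, minus strand) had 77, 97 and 89 reads under vehicle and 95, 85 and 58 under TGFβ. These groups overlapped, and the log2 fold change of -0.29 had a 95% interval from -0.83 to 0.25 (edgeR FDR 0.726). The TGFB3 row lies wholly inside that of IFT43, a ciliary transport gene with 45 to 89 reads per culture. Groups that did not overlap were common, with 10.4% of all tested genes wholly higher in the TGFβ cultures and 8.23% wholly lower.

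INHBB (ENSG00000163083, chr2:121103719-121109384, plus strand), the activin βB subunit, had 316, 308 and 177 reads under vehicle and 371, 301 and 198 under TGFβ. At 3.39 ± 0.452 and 3.43 ± 0.618 CPM (SD, n = 3) the groups overlapped, and the 95% interval of the log2 fold change, from -0.39 to 0.42 (edgeR FDR 0.984), leaves room for changes of up to 1.34-fold upward and down to 0.762-fold. INHBA (ENSG00000122641, chr7:41724712-41742706, minus strand), the activin βA subunit, had 2 reads in vehicle culture 3 and 0 in the other 5 cultures. No fold is given for it, since neither group exceeded 3 reads in total. INHBA-AS1, an antisense gene that overlaps it over 9193 bp, had between 1 and 8 reads per culture.

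GDF15 (ENSG00000130513, chr19:18485541-18499986, plus strand) was the most abundant of the 10 members and was not called. It had 157, 202 and 147 CPM in vehicle cultures 1, 2 and 3 and 161, 241 and 156 CPM in TGFβ cultures 1, 2 and 3. Culture 2 was the highest in both groups, the opposite of NODAL, LEFTY1, INHBC and INHBE, and the difference between cultures exceeded that between treatments. The log2 fold change was 0.14 (95% interval -0.25 to 0.52, edgeR FDR 0.83). Within pairs of same-numbered cultures the TGFβ culture was 1.03, 1.19 and 1.06 times the vehicle culture, and the block gave a log2 fold change of 0.12 (standard error 0.05) that did not pass either (edgeR FDR 0.196). Of the genes beside it, PGPEP1 passed only with the block (log2 fold change -0.21, edgeR FDR 0.391, 0.0249 with the block) and LRRC25 in neither fit (log2 fold change 0.41, edgeR FDR 0.389).

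**Figure D1:**
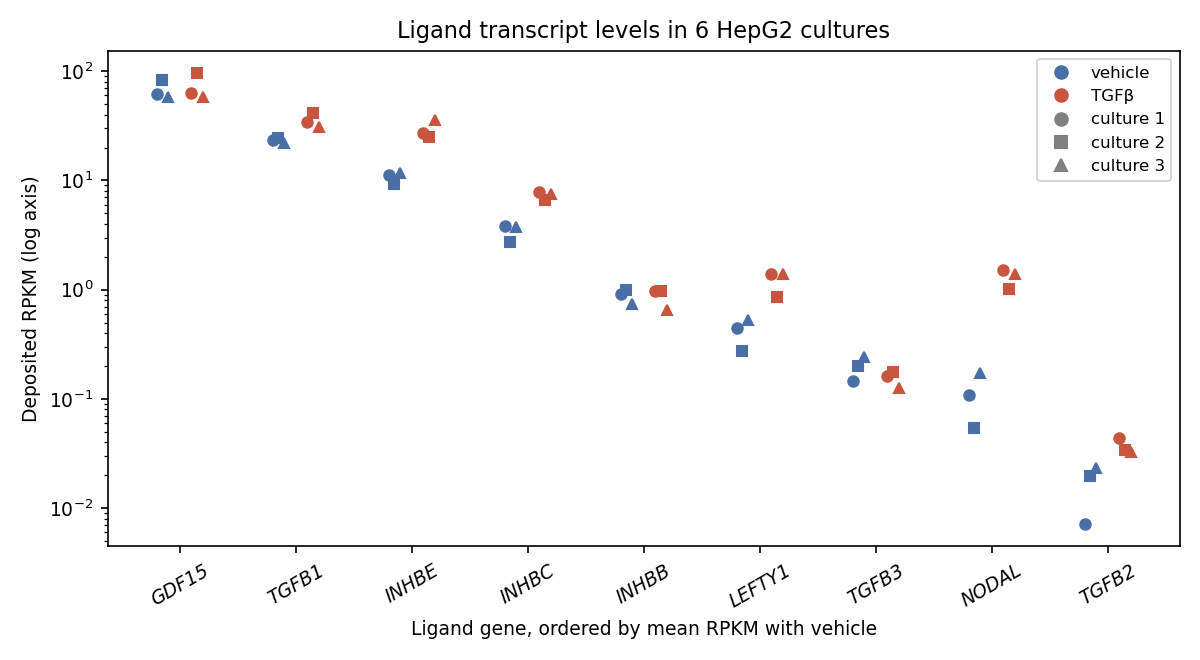
Deposited RPKM on a log axis for 9 ligand genes in each of the 6 HepG2 cultures, vehicle in blue and TGFβ in red, with a marker shape for each culture number; INHBA, at 0 in 5 cultures, is left out. GDF15, INHBB and TGFB3 overlap between groups. The NODAL points move from between 0.0545 and 0.172 RPKM with vehicle to between 1.02 and 1.52 with TGFβ.

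Ordered by RPKM, which allows for gene length, the vehicle cultures expressed GDF15 most, between 57.6 and 82.4 RPKM, then TGFB1 between 22.2 and 24.2, INHBE between 9.36 and 11.7, and INHBC between 2.74 and 3.85. INHBB, LEFTY1, TGFB3, NODAL, TGFB2 and INHBA followed below 1 RPKM in each vehicle culture. Only TGFB3 and NODAL had overlapping ranges among neighbors in this order. With TGFβ the order of the first 4 was kept, but INHBE, between 25.2 and 35.8 RPKM, overlapped TGFB1, between 30.8 and 41.8. The RPKM ratio of INHBE to TGFB1 was 0.481, 0.388 and 0.525 with vehicle and 0.789, 0.603 and 1.16 with TGFβ, without overlap (two-sided exact permutation p = 0.1, adjusted 0.1). NODAL moved from rank 8 to rank 5, where its range of 1.02 to 1.52 RPKM overlapped that of LEFTY1, 0.851 to 1.39, and LEFTY1 in turn overlapped INHBB, 0.657 to 0.97.

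**Figure D2:**
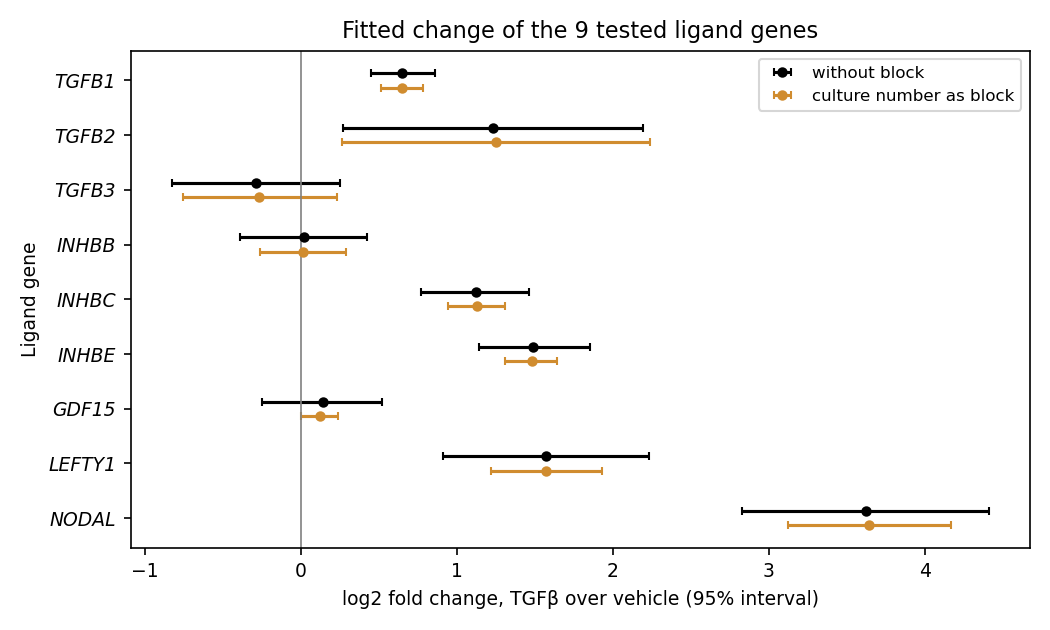
Fitted log2 fold changes (TGFβ over vehicle, horizontal axis) of the 9 tested ligand genes with 95% intervals, from edgeR without a block (black) and with the culture number as a block (orange). The intervals of TGFB1, INHBC, INHBE, LEFTY1 and NODAL lie above 0 in both fits; those of TGFB2 do too, although its FDR was 0.2 and 0.109.

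The 5 called genes rose in all 3 pairs of same-numbered cultures. By the labels, pair 1 shared lane 1 of the sequencer and pair 2 shared lane 3, whereas pair 3 was split over lanes 4 and 5. In pairs 1, 2 and 3 in turn, the TGFβ culture held 14, 19.2 and 8.52 times the CPM of NODAL, 3.08, 3.15 and 2.75 times that of LEFTY1, and 2.43, 2.75 and 3.23 times that of INHBE. For INHBC the ratios were 2.02, 2.46 and 2.11, and for TGFB1 they were 1.48, 1.77 and 1.46. No called member fell in any pair. For TGFB2 the ratios of 6.15, 1.75 and 1.5 rested on 4 to 27 reads, and for TGFB3 they were 1.12, 0.902 and 0.55.

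**Figure D3:**
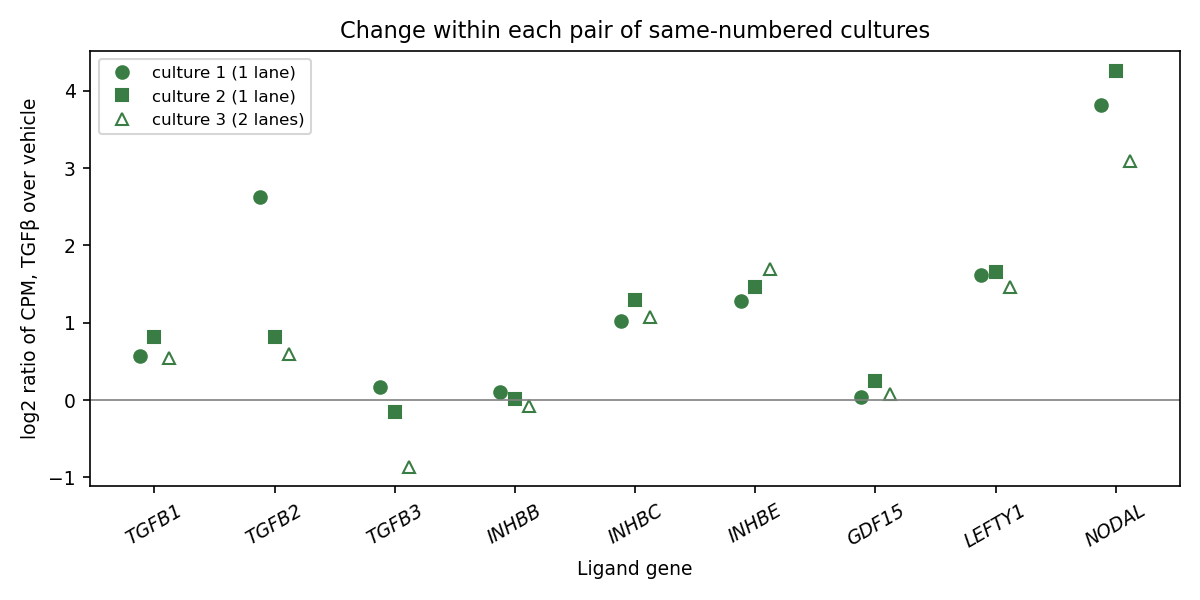
Log2 ratio of CPM, TGFβ over vehicle, for each ligand gene (horizontal axis) within each pair of same-numbered cultures; filled symbols are pairs run on 1 lane and open triangles are pair 3, run on 2 lanes. NODAL lies between 3.09 and 4.26, and LEFTY1, INHBE and INHBC lie between 1.02 and 1.69 in every pair, while INHBB stays between -0.08 and 0.10.

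Promoters are shown for NODAL, INHBC and TGFB1, which rose, and for GDF15, which was not called, so that their sequences can be set beside the changes above. Each is the 250 bases before the RefSeq start site in GRCh38.p14, a later build than that of the counts, written 5′ to 3′ on the strand of the gene. Capitals mark CAGAC or its reverse complement GTCTG, the core letters to which SMAD3 binds.
NODAL (chr10:70441682-70441931, minus strand): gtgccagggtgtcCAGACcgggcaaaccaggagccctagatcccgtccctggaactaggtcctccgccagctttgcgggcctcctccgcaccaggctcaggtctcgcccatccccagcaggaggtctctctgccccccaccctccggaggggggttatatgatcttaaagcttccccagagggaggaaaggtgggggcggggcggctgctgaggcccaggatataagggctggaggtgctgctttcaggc
INHBC (chr12:57434534-57434783, plus strand): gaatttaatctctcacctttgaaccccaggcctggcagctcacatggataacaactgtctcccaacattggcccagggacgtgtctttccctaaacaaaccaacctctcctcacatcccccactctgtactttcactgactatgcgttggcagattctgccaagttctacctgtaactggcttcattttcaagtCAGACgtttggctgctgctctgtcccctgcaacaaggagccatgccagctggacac
TGFB1 (chr19:41353923-41354172, minus strand): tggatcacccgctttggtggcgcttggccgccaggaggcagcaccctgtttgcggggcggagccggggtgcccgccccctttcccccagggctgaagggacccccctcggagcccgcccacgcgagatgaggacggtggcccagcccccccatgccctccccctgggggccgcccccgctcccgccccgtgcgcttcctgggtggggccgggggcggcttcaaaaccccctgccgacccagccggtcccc
GDF15 (chr19:18385908-18386157, plus strand): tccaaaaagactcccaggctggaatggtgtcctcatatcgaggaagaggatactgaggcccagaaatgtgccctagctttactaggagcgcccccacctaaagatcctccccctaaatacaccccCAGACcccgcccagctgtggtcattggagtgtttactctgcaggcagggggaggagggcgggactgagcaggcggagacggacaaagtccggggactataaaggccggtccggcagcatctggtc

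NODAL, INHBC and GDF15 each held CAGAC once in this window, 237, 56 and 125 bases before the start, and TGFB1 held neither form. CAGAC or GTCTG was found in 38% of all 35116 RefSeq windows of this length, and it was present in called and uncalled members alike. Windows were found for 8 of the 10 members, with 2 for TGFB3, and not for INHBE and LEFTY1. None of the 9 windows held TGATGNAA, letters found in sites of the stress factor ATF4 (in 3.14% of all windows), or the AP-1 letters TGANTCA (6.57%), both searched on either strand. These are matches of letters in a short window only.

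The other genes that make, cut, bind or receive these ligands were followed with lists of 23 further superfamily ligands, 17 receptors and co-receptors, and 20 genes for latency, cleavage and ligand binding. Of these 60 genes, 37 had enough reads, and 9 of them rose and 2 fell, against 3.11% and 1.01% of all tested genes. With the block 14 rose and 4 fell, against 8.08% and 3.75% of all tested genes. The median log2 fold change of the 37 genes was 0.27 without the block. The 12 SMAD-dependent early targets all rose, with a median log2 fold change of 1.38. They were listed to check the treatment, but with earlier results of these data known, so their rise is not an independent check. PMEPA1 had a log2 fold change of 4.30 (edgeR FDR 4.41e-05), JUNB of 3.66 (edgeR FDR 6.29e-07) and SKIL of 2.45 (edgeR FDR 8.43e-06). PMEPA1, at 8, 18 and 13 reads under vehicle, passed the filter on low counts through the TGFβ cultures, since vehicle culture 1 lay under its minimum. BAMBI, the decoy receptor of this list, lost its call without vehicle replicate 3 (edgeR FDR 0.056) and passed with the block (edgeR FDR 0.000175). The range of these targets was wide, from 0.53 for SMURF1 to 4.30 for PMEPA1. All 5 called members, from 0.65 for TGFB1 to 3.62 for NODAL, lay within it, and so did the uncalled TGFB2 at 1.23.

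Genes whose proteins hold or process the ligands rose in 5 of 14 tested cases and fell in 0, against 3.11% and 1.01% of all tested genes. At an unadjusted p under 0.05 from edgeR 6 were higher and 0 lower (8.69% and 4.97% of all tested genes). DESeq2 called 6 and 0 (5.02% and 2.02%), and limma-voom 5 and 0 (2.99% and 0.932%). With the block 7 rose and 0 fell (8.08% and 3.75%). FSTL3 and FST, which encode the secreted activin-binding proteins FSTL3 and follistatin, rose from 51.9 ± 6.52 to 189 ± 38.3 CPM and from 91 ± 19.6 to 215 ± 42.3 CPM (SD, n = 3). FSTL3 rose by 1.87 on the log2 scale (standard error 0.15, edgeR FDR 0.000103), and FST by 1.24 (standard error 0.17, edgeR FDR 0.00325). FST missed the threshold without the filter on low counts (edgeR FDR 0.114) and passed with the block (edgeR FDR 6.75e-08). FURIN, the convertase that cuts TGFβ precursors, rose from 195 ± 26 to 420 ± 55 CPM (log2 fold change 1.10, standard error 0.12, edgeR FDR 0.000692). LTBP2, of the family of latent TGFβ binding proteins, rose by 0.77 on the log2 scale (standard error 0.15, edgeR FDR 0.0212, 0.00225 with the block). It lost the call without vehicle replicate 2 or 3 or TGFβ replicate 1 or 2 (edgeR FDR 0.0526 to 0.101). THBS1, which encodes the latent TGFβ activator thrombospondin 1 and was smaller still, rose by 0.57 on the log2 scale (standard error 0.08, edgeR FDR 0.0039).

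Among receptors, 3 of 13 tested genes rose and 2 fell, against 3.11% and 1.01% of all tested genes. With the block 4 rose and 3 fell, against 8.08% and 3.75%. BMPR2, the type II receptor for BMPs, rose from 48 ± 2.7 to 136 ± 16.5 CPM (log2 fold change 1.5, standard error 0.10, edgeR FDR 4.41e-05), and ACVR1, a type I receptor, from 20.8 ± 1.7 to 39.4 ± 3.56 CPM (log2 fold change 0.92, standard error 0.10, edgeR FDR 0.000582). TGFBR2, the type II receptor of TGFβ ligands, went the other way, from 349 ± 32.1 to 181 ± 17.7 CPM (log2 fold change -0.95, standard error 0.10, edgeR FDR 0.000543). TGFBR3, the co-receptor betaglycan, fell with it (log2 fold change -0.57, standard error 0.13, edgeR FDR 0.0392, 3.24e-05 with the block). That call was lost when any culture but vehicle replicate 1 was left out (edgeR FDR 0.0514 to 0.184) and with limma-voom (FDR 0.0511). Fits with a culture left out did not use the block. TGFBR1, named although it was smaller than these, rose by 0.43 on the log2 scale (edgeR FDR 0.00553). GFRAL, the receptor of GDF15, had between 0 and 3 reads per culture.

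Of the other ligands, 10 of 23 were tested, and 1 rose and 0 fell, against 3.11% and 1.01% of all tested genes. The gene that rose was BMP6, a ligand of the BMP branch, on 14, 15 and 6 reads under vehicle and 34, 52 and 44 under TGFβ (log2 fold change 1.82, standard error 0.36, edgeR FDR 0.0196, 0.00441 with the block). It passed the filter on low counts through the TGFβ cultures, since vehicle culture 3 lay under its minimum. It lost the call without any single vehicle culture or TGFβ replicate 2 (edgeR FDR 0.0598 to 0.0929). BMP4 had most reads of this list and fell only with the block, from 142 ± 11.2 to 117 ± 11.2 CPM (log2 fold change -0.28, edgeR FDR 0.163, 0.00539 with the block). INHA, the α subunit that pairs with a β subunit to form inhibin, and GDF7 were looked at after their values were seen. Both also depended on the block, INHA with a log2 fold change of 0.69 (edgeR FDR 0.274, 0.000717 with the block) and GDF7 of 0.45 (edgeR FDR 0.25, 0.00357 with the block).

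**Figure D4:**
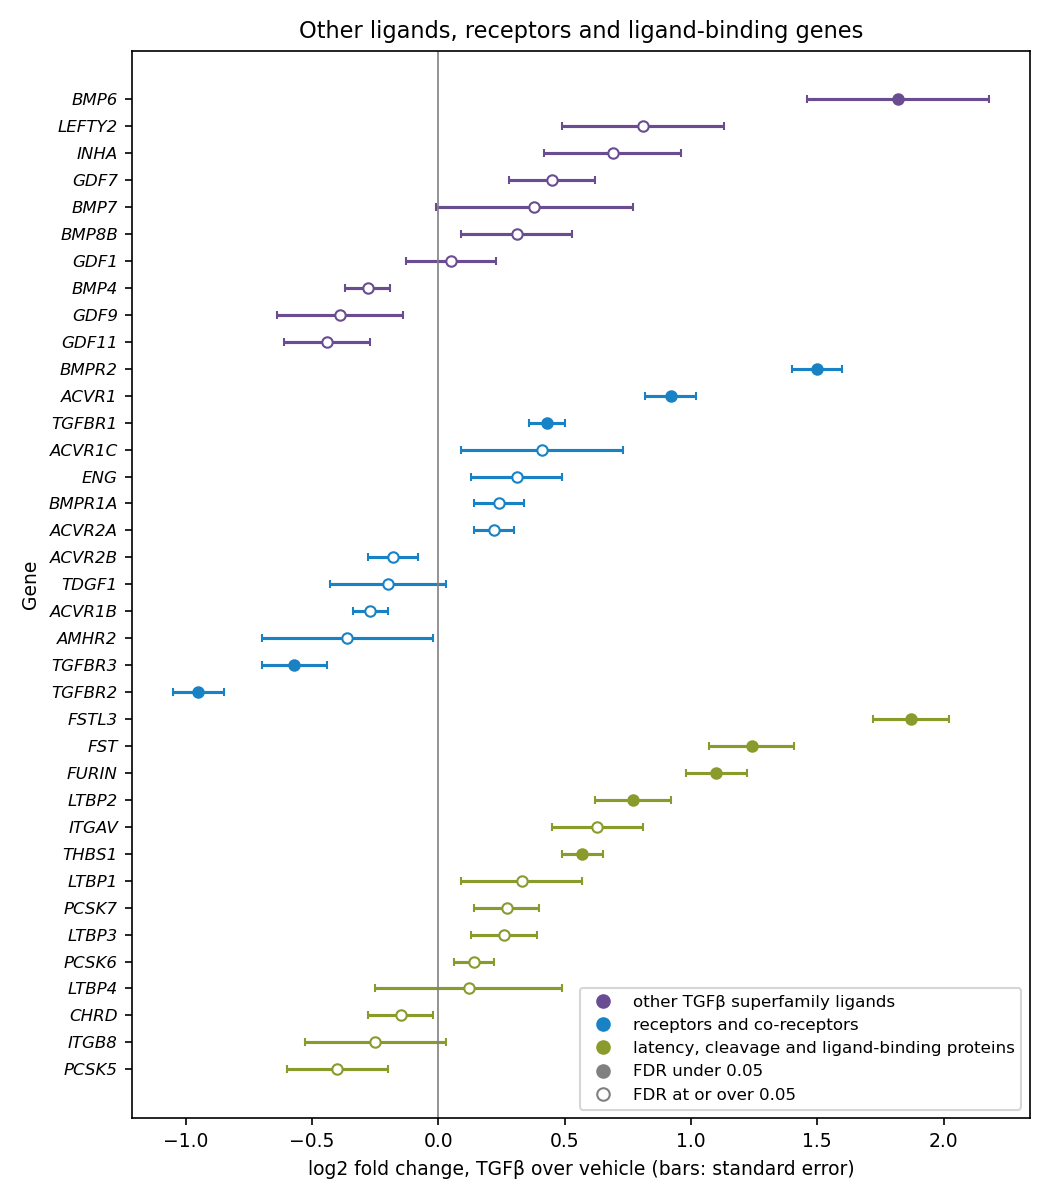
Log2 fold changes (TGFβ over vehicle, horizontal axis) with standard errors for the 37 tested genes of the 3 lists of other ligands (purple), receptors and co-receptors (blue), and latency, cleavage and ligand-binding genes (green); filled points passed an edgeR FDR of 0.05. FSTL3, BMP6, BMPR2 and FST have the largest positive values among the filled points, and TGFBR2, at -0.95, the lowest value.

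GDF15 and INHBE are known targets of the stress factor ATF4, and a list of 14 genes of the amino acid and ER stress response was followed for that reason. Of 13 tested, 2 rose and 0 fell at the edgeR FDR that 3.11% of all tested genes passed upward and 1.01% downward, with a median log2 fold change of 0.10. At an unadjusted p under 0.05 from edgeR 4 were higher and 0 lower (8.69% and 4.97% of all tested genes), DESeq2 called 3 and 0 (5.02% and 2.02%), and limma-voom 2 and 0 (2.99% and 0.932%). With the block 3 rose and 0 fell (8.08% and 3.75%), the added gene being ATF3, a stress-induced transcription factor, at 12.1 ± 2.67 CPM with vehicle and 18.2 ± 1.55 with TGFβ (SD, n = 3; log2 fold change 0.59, edgeR FDR 0.0761, 0.0133 with the block). The genes called without the block were DDIT4, a stress-induced inhibitor of mTORC1 signaling (log2 fold change 1.21, standard error 0.21, edgeR FDR 0.0106), and NUPR1, a stress-induced chromatin protein (log2 fold change 0.85, standard error 0.08, edgeR FDR 0.000305). DDIT4 lost the call without TGFβ replicate 1 or 2 (edgeR FDR 0.0723 and 0.0601) and without the filter on low counts (edgeR FDR 0.278). It passed with the block (edgeR FDR 6.43e-05). ATF4 itself, looked at after its values were seen, had 176 ± 11.3 CPM with vehicle and 179 ± 20.5 CPM with TGFβ (SD, n = 3; edgeR FDR 0.942).

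The genes whose profiles over the 6 cultures lay closest to those of the called members were found from the root mean square difference of log2 CPM, each gene centered on its mean. For NODAL these were AC022532.1, which overlaps it, IHH, a hedgehog ligand, and JUNB, an AP-1 transcription factor, at 0.38, 0.45 and 0.47. For INHBE they were SGK1, DNMT3B and MARCH3, at 0.12, 0.13 and 0.15, and for LEFTY1 they were DNMT3B, MARCH3 and UGT1A1, at 0.21, 0.23 and 0.23. INHBC was closest to CDC42EP4, ABCA10 and TMEM37, at 0.08, 0.09 and 0.10. TGFB1 was closest to RP11-510N19.5, SBK3 and RP11-175O19.4, at 0.03, 0.04 and 0.04.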

How the data were processed

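The deposited table holds, for each of 6 HepG2 cultures, the raw count per gene and the RPKM. Per the labels and the study's methods, the authors sequenced TruSeq mRNA libraries, aligned paired-end reads to hg19 and obtained counts with MAPRseq. The submitters' processing notes name bcl2fastq, TopHat2 2.0.6 and HTSeq. The annotation release, strand setting and rule for overlapping genes were not given by these sources. The deposited RPKM values were used only for levels between genes. Counts were tested with edgeR 4.0.16 (limma 3.58.1, R 4.3.3): TMM, filterByExpr, robust quasi-likelihood F test and Benjamini-Hochberg adjustment over 22747 genes, with standard errors implied by F. Steps were tested on simulated data. Alternatives were DESeq2 1.42.0, its size factors, total-count scaling, limma-voom, no filter, a minimum of 10 counts per library, the culture number as a block, and leaving out each culture. Numbers were taken to pair the cultures, since deviations from group means correlated across genes at 0.366, 0.227 and 0.316 for numbers 1, 2 and 3 and at most at 0.0101 otherwise. Replicates were distinct libraries, with a chi-square per gene of 21 or above. The study calls them biological replicates. Members and lists were chosen with earlier results of these data known. Genes named are the members, those overlapping or flanking them, up to 4 called genes of each list by size, the most counted further ligand, and the 3 closest profiles per called member; exceptions are marked. For likeness, log2 CPM used a prior count of 2.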

Additional observations from a re-analysis of the deposited data

How the results depend on the processing

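Under 13 alternatives each, TGFB1, INHBC and INHBE kept their call, as did NODAL under the 12 that tested it, since its 9 reads in a vehicle culture dropped it where at least 10 counts were required in every library. LEFTY1 lost its call only without vehicle replicate 2 (FDR 0.0551). TGFB2, TGFB3, INHBB and GDF15 passed under none. For TGFB2 only 11 alternatives gave an FDR, since DESeq2 gave it none and the minimum of 10 counts dropped it. With single cultures left out, 4 to 5 members were higher and 0 lower. The sign of the uncalled INHBB value turned with total-count scaling (-0.03), without the filter (-0.01) and with single cultures left out (log2 fold changes from -0.09 to 0.15), and that of GDF15 with TGFβ replicate 2 left out (-0.10; range -0.10 to 0.28). With the culture number as a block, to which the same-numbered cultures were paired, the calls over all genes went from 707 higher and 230 lower to 1837 and 853, and those of receptors and ligand partners from 9 and 2 to 14 and 4; the block changed no call of a member. Over all genes, 366 were lower without the filter and 406 with DESeq2. Leaving out single cultures gave 394 to 778 higher and 91 to 220 lower: 414 and 104 without vehicle replicate 2, 394 and 91 without vehicle replicate 3, 439 and 122 without TGFβ replicate 2, and 144 lower without TGFβ replicate 1. It gave 7 to 10 higher and 1 to 2 lower receptors and partners, and 1 to 2 higher stress response genes. With limma-voom, 1 receptor or partner was lower. The order of levels was the same with CPM per kilobase. Where fewer samples do not account for a change, the cause was not tested.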
